A study of Mus musculus with 36 samples.

Results

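The Halo-SMCHD1 K518E and Halo-SMCHD1 G137E lines were compared at day 5 of differentiation, with 2 libraries of each line, which makes 4 of the 36 libraries of the series. Members were taken by their sample labels, and the 242 X-linked genes of the table that holds both lines were all described. Chromatin-associated RNA sequencing (ChrRNA-seq) captures RNA still attached to chromatin and so follows transcription more closely than total RNA does. The value of each gene is the fraction Xi/(Xi+Xa), the reads from the inactive X chromosome (Xi) over the reads that can be assigned to either allele. A value near 0.5 means that both alleles contributed alike, and a value near 0 means that nearly all assigned reads came from the active X chromosome (Xa).

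All lines are interspecific hybrid Cast x 129S female mouse embryonic stem cells (mESCs) in which a doxycycline (dox) inducible TetOn promoter drives Xist from the 129S allele, so that the Xi is always the 129S chromosome and the Xa is the Cast chromosome. The parental line of both mutants, Halo-SMCHD1, carries an N-terminal Halo-tag on SMCHD1 and serves here as the reference with unmutated SMCHD1. In the G137E line both Smchd1 alleles carry glutamate in place of the glycine G137, and in the K518E line both carry it in place of the lysine K518. Each of these lines is 1 clone, and the tag and the TetOn promoter are shared by all groups. The paper also describes an eGFP-CIZ1 transgene in the Rosa26 locus of Halo-SMCHD1, placed there before the point mutations were made. Day-5 and day-7 libraries came from cells kept in dox at 1 µg/ml throughout monolayer differentiation. Each line also gave 1 library before induction and 1 after 24 h with dox without differentiation. At day 7 there were 3 G137E libraries and 2 K518E libraries, and Halo-SMCHD1 gave 2 libraries at day 5 and 3 at day 7. Y353C, used once for context, is 1 clone made from Halo-SMCHD1 with that substitution on both Smchd1 alleles and gave 2 libraries at day 7. The replicates of a day are described as separate differentiation experiments of the same clone, so the spread between them holds no variation between clones. The K518E libraries carry later sample numbers in the series than the G137E libraries, and K518E was added to the study at revision, so the libraries of the lines may have been made and sequenced at different times. The labels give no sequencing batch, and such a batch cannot be told apart from the substitution. Smchd1 is autosomal and the table lists X-linked genes only, so neither the substitutions nor the differentiation state could be checked from these values.

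X chromosome inactivation (XCI) silences one X chromosome in each female cell. It starts when Xist RNA coats the chromosome in cis and recruits silencing complexes, and it is then locked in by further factors. SMCHD1 is needed to keep part of the chromosome silent and is a non-canonical SMC protein with a GHKL-type ATPase domain at one end and a hinge domain at the other. Some genes are silenced early and without SMCHD1, others need it, and escape genes keep some expression from the Xi. Both G137E and K518E were reported to raise ATP hydrolysis by the isolated ATPase domain, and both occur in patients with developmental disease. Their direct comparison asks whether different activating substitutions leave the Xi at the same level of silencing at a time when silencing is still under way.

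The substituted codons are shown to place the mutations that define the groups. Smchd1 lies on chromosome 17, minus strand, at chr17:71344489-71475343 in GRCm38 (mm10). The codon of G137 is in exon 3 at chr17:71463775-71463777 and that of K518 in exon 12 at chr17:71431315-71431317, as counted on the GENCODE vM21 transcript Smchd1-201 with a coding length of 6021 bases. Each run below is reference coding sequence, 5′ to 3′, with 10 codons on either side of the substituted codon, which is in capitals.
Smchd1 codon G137: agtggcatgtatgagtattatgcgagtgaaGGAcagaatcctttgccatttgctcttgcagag
Smchd1 codon K518: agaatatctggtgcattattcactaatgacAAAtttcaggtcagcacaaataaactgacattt
The guides used for editing are shown with the PAM in capitals, because they were used to make the lines compared. The G137 guide matches the coding strand of this transcript once, and its cut, taken as 3 bases before the PAM, lies 4 bases upstream of the codon. The K518E guide has no match in the spliced transcript on either strand, so no cut position is given for it.
SMCHD1_G137: tatgagtattatgcgagtgaAGG
SMCHD1_K518E: aggagcacaccagtcaaagcTGG

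Across X-linked genes, the Xi share of allelic reads at day 5 was lower in K518E than in G137E. The median over 242 genes was 0.0371 and 0.0432 in the K518E libraries and 0.0565 and 0.0758 in the G137E libraries. Both K518E libraries lay below both G137E libraries, and the mean of the medians was 0.0402 ± 0.00432 (SD, n = 2) against 0.0662 ± 0.0136 (SD, n = 2). With 2 libraries against 2, the two-sided exact permutation test gave p = 0.333, the smallest it can give, so this design cannot show the difference by that test. The difference of the medians was -0.0260, and it was -0.0164 without G137E replicate 2, the library with the highest median. Both Halo-SMCHD1 medians, 0.0688 and 0.0606, lay within the range of the G137E libraries and above both K518E libraries. A lower fraction can come from fewer Xi reads or from more Xa reads, and without counts these cannot be told apart. In bulk RNA, fewer cells that transcribe an allele and less transcription of it in each cell cannot be told apart either.

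The same direction was seen gene by gene. The mean difference over genes, K518E minus G137E, was -0.0235, more than the SD of library means within the lines of 0.00710. By their means, 208 genes were lower in K518E, 32 were higher and 2 were equal. In 236 genes with a value above 0 in G137E, the median ratio of K518E to G137E was 0.665, and 64 of these genes had a ratio under 0.5. Each single K518E library was below each single G137E library on average, with mean differences from -0.0151 to -0.0320 over the 4 pairs of libraries. Replicates of 1 line differed by less on average over genes, with mean differences of 0.00291 between the K518E libraries and 0.0139 between the G137E libraries. Without regard to sign, the median absolute difference per gene was 0.00850 between K518E replicates and 0.0194 between G137E replicates. Over the 4 pairs of libraries it ran from 0.0185 to 0.0314, so per gene the closest pair was no further apart than the G137E replicates. The number of genes with very low values moved with this. Values under 0.05 were found for 64.5% and 56.6% of genes in the K518E libraries, and for 43.4% and 30.2% in the G137E libraries.

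**Figure D1:**
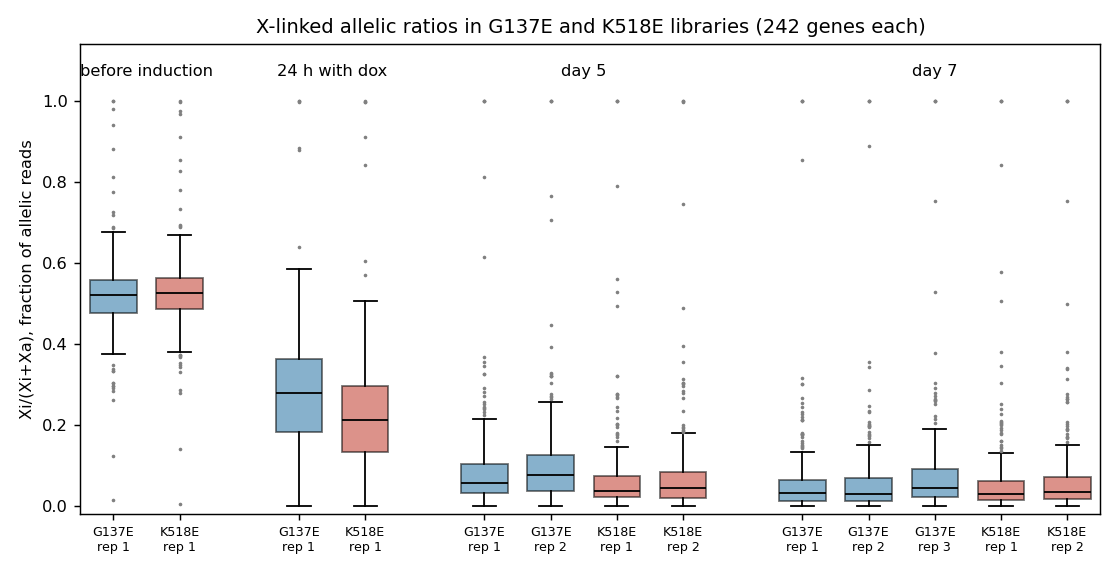
Box plots of Xi/(Xi+Xa) (y axis, fraction of allelic reads) over 242 X-linked genes, 1 box per G137E library (blue) or K518E library (red), grouped by stage along the x axis. Lines mark medians, boxes the quartiles, whiskers reach 1.5 times the interquartile range and dots are genes beyond them. At 24 h with dox and at day 5 the K518E medians lie below the G137E medians, and at day 7 the libraries of both lines overlap.

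The libraries of K518E and G137E did not overlap for 148 genes at day 5. Both K518E libraries were above both G137E libraries for 11 of these, 4.55% of the 242, and below both for all the others, 56.6%. The libraries of the other 94 genes overlapped. Just inside the border were Hs6st2, whose K518E libraries were lower by a gap of 0.000341, and Nsdhl, whose K518E libraries were higher by a gap of 0.000887. Just outside it were Ube2a, which was listed at 1 in all 4, and 2010204K13Rik, which was 0.0263 in 1 G137E library and listed at 0 in the other 3 libraries. In the lower genes the median value was 0.0404 in K518E and 0.0758 in G137E, and the median difference was -0.0319. These counts describe order only. In the overlapping genes the median difference was -0.00824, and 71 of the 94 were lower in K518E by their means. When the 4 libraries were shifted to the same median log2 odds, which removes a median difference of -0.63 in log2 odds between the lines, 39 genes were below without overlap and 74 above. This centring moves every gene of a library alike and so sets the balance of lower and higher genes by construction, and it leaves differences relative to the median gene only. All 39 were among the lower genes and all 11 remained above.

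For tests of 1 gene at a time, each fraction was turned into log2 odds, the log2 of the Xi share over the Xa share with 0.01 added to both. limma was fitted to the 14 differentiated libraries together, and p values were adjusted by Benjamini-Hochberg over 242 genes. At an adjusted p under 0.05, 1 gene differed between K518E and G137E at day 5, 0.413% of those tested, and 0 were called lower. At an unadjusted p under 0.05 there were 38 genes, of which 35 were lower and 3 higher in K518E. The median gene was lower in K518E by -0.49 in log2 odds.

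The called gene was Rab39b, a small GTPase of vesicle traffic in neurons, at chrX:75572045-75578231. It was 0.0408 and 0.0208 in the K518E libraries and was listed at 0 in both G137E libraries and both Halo-SMCHD1 libraries. Its log2 odds were higher by 2.03 with an SE of 0.23 (limma, adjusted p = 0.00151). Because G137E is listed at 0, this size depends on the value added to both shares. It was 4.96 with 0.001 added and 0.72 with 0.05 added, so it is no measure of how large the difference is. Rab39b was listed at 0 in all day-7 libraries of the 3 lines too, so the estimate of its spread rests on the 2 K518E libraries at day 5. The adjusted p was 0.0557 on untransformed fractions and 0.140 with only the libraries compared. At 24 h with dox Rab39b was 0.150 in K518E and 0.222 in G137E, the opposite order.

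**Figure D2:**
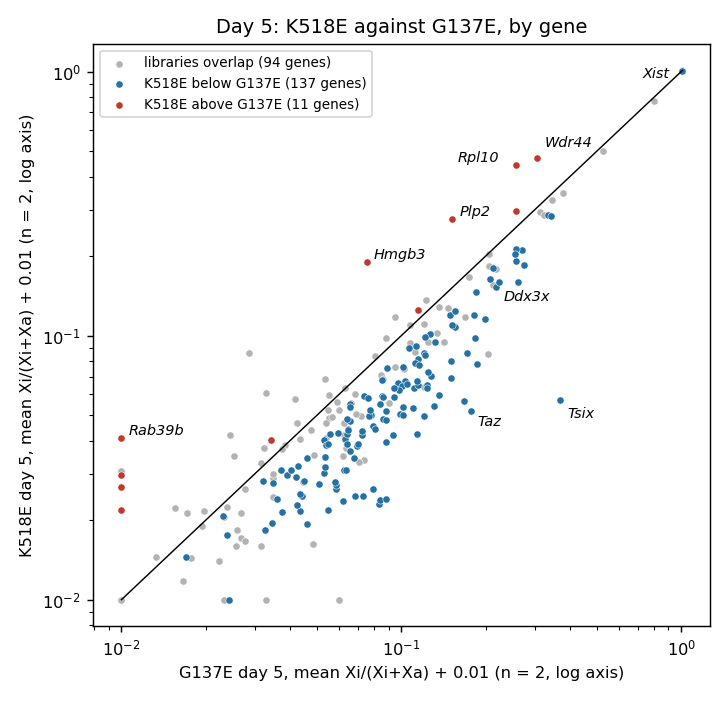
Mean Xi/(Xi+Xa) + 0.01 at day 5 of each of 242 genes in G137E (x axis) and K518E (y axis), both fractions on log axes, with equality as a line. Blue points are the genes with both K518E libraries below both G137E libraries, red points the 11 genes with both above, and grey points the 94 genes whose libraries overlap. Most genes lie under the line, while Hmgb3, Plp2, Rpl10 and Wdr44 lie above it.

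Xist and its antisense partner Tsix were examined first among named genes. Xist, the trigger of silencing, was 0.999 and 0.998 in K518E and 0.999 and 0.998 in G137E, that is, its reads came from the induced 129S allele in every library. Tsix, which is transcribed across Xist on the opposite strand and represses it in cis, lies at chrX:103431517-103484957. It was 0.0420 and 0.0526 in K518E, 0.615 and 0.105 in G137E, and 0.469 and 0.0589 in Halo-SMCHD1. The difference of -0.312 was the largest among genes without overlap, yet it was set by G137E replicate 1, and a replicate of Halo-SMCHD1 was nearly as high. Its log2 odds differed by -2.92 with an SE of 1.51 (limma, adjusted p = 0.346). Of the X-inactivation centre list, 3 genes were in the table. Of these, 2 were below without overlap, Tsix and Chic1, beside 56.6% of all genes.

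The genes furthest below G137E among those without overlap are given next, by the size of their difference and not as a functional group. Taz, the tafazzin gene of cardiolipin remodelling at chrX:74282718-74290151, was 0.0127 and 0.0709 in K518E against 0.176 and 0.157 in G137E. Its 2 Halo-SMCHD1 libraries, 0.188 and 0.0556, spanned most of that range. Timm17b, a subunit of the inner membrane import channel at chrX:7899398-7907652, was 0.0545 and 0.0641 in K518E and 0.115 and 0.167 in G137E. For Fundc1, a mitophagy receptor at chrX:17556569-17572297, the values were 0.202 and 0.148 against 0.208 and 0.321, so the lines were barely apart. None of these passed limma, with adjusted p of 0.243 for Taz, 0.578 for Timm17b and 0.382 for Fundc1.

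Tmem47, a membrane protein of cell junctions at chrX:81070644-81097875, was 0.0875 and 0.0890 in K518E and 0.188 and 0.159 in G137E. Its log2 odds differed by -1.04 with an SE of 0.29 (limma, adjusted p = 0.206), and at day 7 both K518E libraries were again below all 3 G137E libraries. Porcn, the acyltransferase that lipidates Wnt proteins, was 0.0649 and 0.0870 against 0.156 and 0.169. These genes stood 1.97-fold and 2.14-fold higher in G137E than in K518E by their means.

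For Wdr45, an autophagy protein at chrX:7722220-7728201, K518E gave 0.0530 and 0.0464, and G137E gave 0.174 and 0.0789. Ftsj1, a tRNA methyltransferase at chrX:8238668-8252406, was 0.102 and 0.110 in K518E and 0.128 and 0.25 in G137E. In both genes the G137E libraries differed from each other by more than the nearest libraries of the lines did. Mamld1, a transcriptional cofactor at chrX:71050256-71154717, was 0.0558 and 0.0323 in K518E, 0.0923 and 0.149 in G137E, and 0.174 and 0.110 in Halo-SMCHD1. Its K518E libraries were below both other lines and stayed below G137E at day 7.

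The synaptic receptor gene Il1rapl1, at chrX:86747242-88115623, was 0.127 and 0.173 in K518E and 0.231 and 0.271 in G137E. It was unusual in its start, since it was 0.974 and 0.979 before induction in K518E and G137E, far from equal alleles. Wdr13, a WD-repeat protein gene at chrX:8123301-8132847, was 0.0880 and 0.0480 against 0.159 and 0.192. The non-coding transcript 5730405O15Rik at chrX:13042015-13045295 was 0.0227 and 0.0702 against 0.148 and 0.167. Among these 12 genes, which had the largest differences of those below without overlap, the lowest limma adjusted p was the 0.206 of Tmem47. By their means at day 7, K518E was above G137E for Il1rapl1 (by 0.0772), 5730405O15Rik (0.0548), Fundc1 (0.0295), Porcn (0.0282) and Wdr13 (0.0190). The others of the 12 were still lower in K518E at day 7 by their means.

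**Figure D3:**
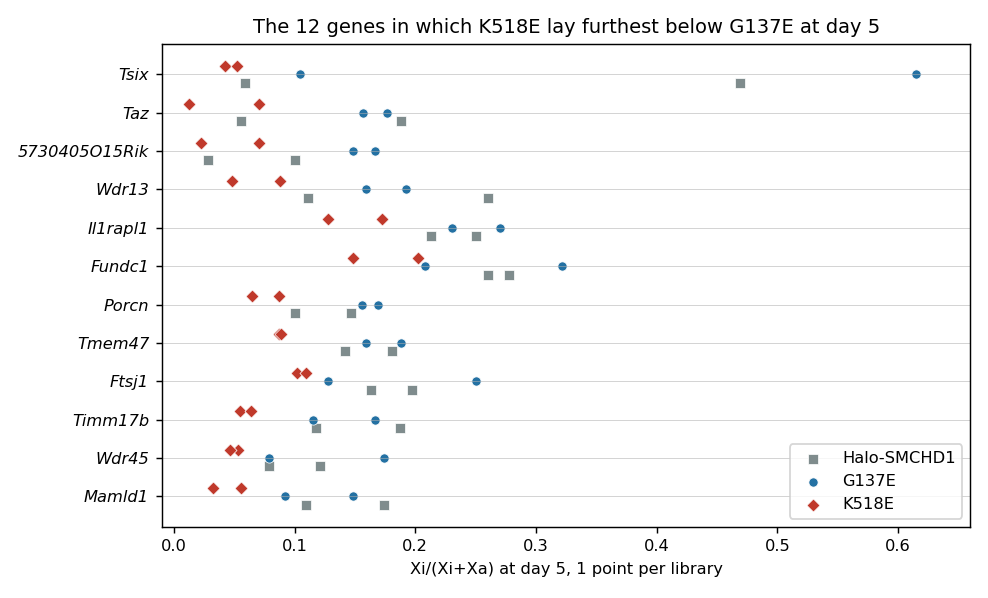
Xi/(Xi+Xa) at day 5 (x axis, fraction), 1 point per library, of the 12 genes (y axis) that differ most where both K518E libraries are below both G137E libraries. Red diamonds are K518E, blue circles G137E and grey squares Halo-SMCHD1, 2 libraries each. Tsix spans 0.105 to 0.615 in G137E, while Tmem47 and Porcn have closely placed replicates in both lines.

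Escape genes are known to keep some transcription from the Xi. Of the 6 listed escape genes in the table, 5 were below without overlap and 1 was above, beside 56.6% and 4.55% of all genes. Ddx3x, an RNA helicase at chrX:13281022-13293983, was 0.116 and 0.171 in K518E, 0.214 and 0.202 in G137E, and 0.206 and 0.197 in Halo-SMCHD1. Kdm6a, a histone demethylase, was 0.269 and 0.283 in K518E and 0.324 and 0.326 in G137E. Utp14a, a ribosome biogenesis factor, was 0.243 and 0.303 against 0.344 and 0.321. In these 3 genes both lines were above the median of the chromosome. Shroom4, an actin-binding protein gene, was 0.0344 and 0.0459 in K518E and 0.0536 and 0.0818 in G137E, near the library medians. 1810030O07Rik was 0.0927 and 0.0908 against 0.118 and 0.116.

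Eif2s3x, the escape gene on the other side, encodes a translation factor that delivers the initiator tRNA, and it lies at chrX:94188709-94212651. It was 0.274 and 0.300 in K518E against 0.270 and 0.225 in G137E, with a gap between the lines smaller than the difference between the G137E replicates. No escape gene passed limma at day 5, and the adjusted p was 0.271 for Ddx3x and 0.495 for Eif2s3x.

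Besides Rab39b and Eif2s3x, 9 genes had both K518E libraries above both G137E libraries. Plp2, a membrane proteolipid gene at chrX:7668116-7671278, was 0.266 and 0.267 in K518E, 0.105 and 0.180 in G137E, and 0.168 and 0.121 in Halo-SMCHD1. It was also higher in K518E at 24 h with dox, at 0.444 against 0.313, and before induction, at 0.613 against 0.511. At day 7 it was 0.252 and 0.275 in K518E, above all 3 G137E libraries, which ranged from 0.0958 to 0.206. Plp2 was thus higher at every stage, including the stage before Xist was induced. Its day-5 log2 odds differed by 1.13 with an SE of 0.48 (limma, adjusted p = 0.271). This difference was 0.70 without G137E day-5 replicate 1 and 1.55 without G137E day-5 replicate 2.

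Hmgb3, a high mobility group chromatin protein at chrX:71555993-71560654, was 0.180 and 0.179 in K518E, 0.0701 and 0.0602 in G137E, and 0.0547 and 0.0833 in Halo-SMCHD1. It was not higher in K518E at 24 h with dox, at 0.148 against 0.198. At day 7 it was 0.178 and 0.176 in K518E, and G137E replicate 1 reached 0.176. From 24 h to day 7 the K518E libraries stayed between 0.148 and 0.180, while the G137E libraries at day 5 were below its 24 h library. The limma adjusted p was 0.367.

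Rpl10, a protein of the large ribosomal subunit at chrX:74270816-74273135, was 0.559 and 0.303 in K518E and 0.224 and 0.269 in G137E. Wdr44, a Rab-binding protein at chrX:23693117-23806001, was 0.527 and 0.394 against 0.200 and 0.391. In both genes 1 K518E library was near the G137E range and the other far above it. Rpl10 was higher in K518E at day 7 too, at 0.577 and 0.341 against 0.133 to 0.303, as was Wdr44. Like Plp2, Rpl10 was already higher before Xist was induced, at 0.689 against 0.600, and at 24 h with dox, at 0.483 against 0.449. Wdr44 was higher before induction, at 0.570 against 0.500, and lower at 24 h with dox, at 0.371 against 0.474. Rpl10 and Hmgb3 have processed copies elsewhere in the genome, so reads could be shared with near-identical sequence and their values are uncertain. The authors kept uniquely mapped reads only, and such sharing was not tested for these or for other genes. Rpl10 ends 9.58 kb before Taz, which lay on the other side of G137E.

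The other 5 genes above were Mcts1, Smarca1, Heph, Nsdhl and Taf1. Mcts1 (translation re-initiation), Smarca1 (chromatin remodelling) and Heph (iron oxidation) were listed at 0 in both G137E libraries and between 0.00535 and 0.0274 in K518E. Nsdhl, an enzyme of cholesterol synthesis, was 0.0322 and 0.0281 in K518E against 0.0272 and 0.0211 in G137E. Taf1, a core transcription factor, was above by a mean difference of 0.00963. For 4 of the 11 genes, then, the G137E libraries were listed at 0. The depth behind a listed 0 is unknown, and G137E libraries listed 17 genes each at 0 against 9 each in K518E.

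**Figure D4:**
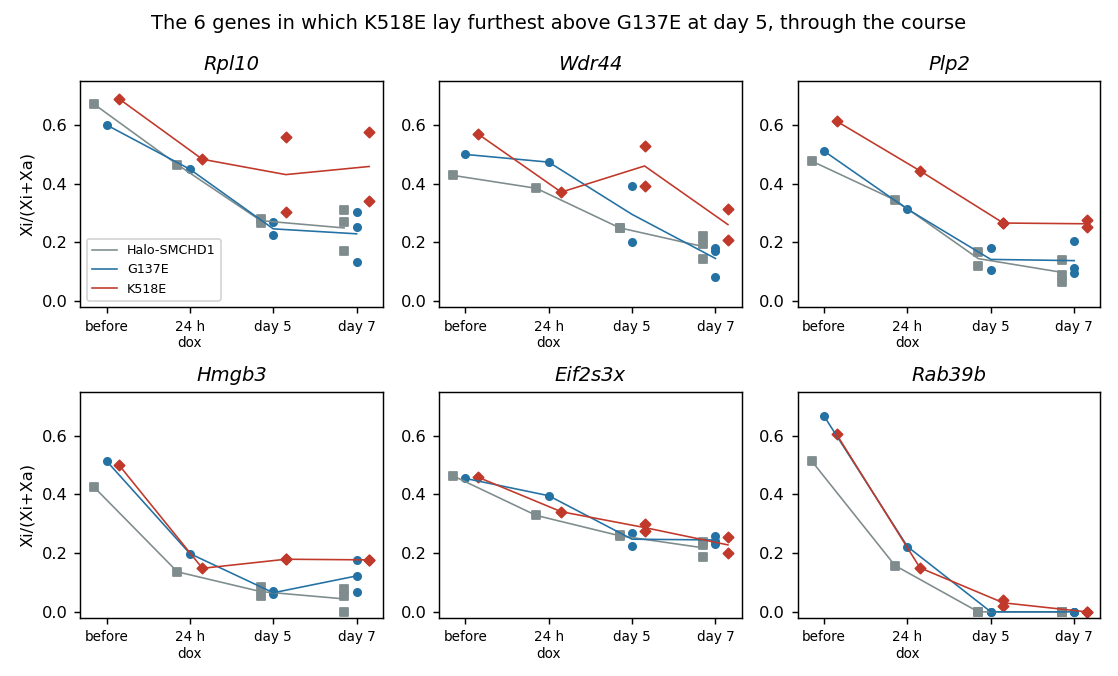
Xi/(Xi+Xa) (y axis, fraction) before induction, at 24 h with dox, at day 5 and at day 7 (x axis) for the 6 genes that differ most where both K518E libraries are above both G137E libraries at day 5. Points are libraries and lines join the means of K518E (red), G137E (blue) and Halo-SMCHD1 (grey). Plp2 and Rpl10 are higher in K518E at each stage, including before induction, whereas Hmgb3 and Rab39b are not higher at 24 h with dox.

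Lists of genes by role are given by their counts beside the 56.6% below and 4.55% above of all genes, and none was tested. Of 24 genes of chromatin and transcription, 14 were below without overlap and 2 above, with a median difference of -0.0187 beside -0.0214 for all genes. Bcorl1, a corepressor, had the largest difference of these, at 0.0531 and 0.0681 in K518E against 0.0952 and 0.141 in G137E. Of 18 RNA processing genes 8 were below and 0 above, with a median difference of -0.0320. Of 5 translation genes 3 were below, among them the ribosomal protein gene Rps4x at 0.0309 and 0.0373 against 0.0562 and 0.0853, and 2 were above, Rpl10 and Eif2s3x. Of 9 genes of the ubiquitin pathway 4 were below and 1, Wdr44, above, with a median difference of -0.00732. Wdr44 is a Rab effector and no ubiquitin enzyme, so it describes that list poorly.

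Of 21 genes of mitosis and the cytoskeleton, 15 were below and 1, Plp2, above, with a median difference of -0.0216. The list also holds genes its name does not describe, since Plp2 is a membrane proteolipid gene, and Wdr45, an autophagy gene, and Wdr13, a WD-repeat gene, are counted among the 15. Msn, which links actin to the membrane, was 0.0139 and 0.0143 in K518E and 0.0548 and 0.101 in G137E. Pls3, an actin bundling protein, was 0.00976 and 0.0140 against 0.0356 and 0.0540, and at an adjusted p of 0.0985 in limma it came closest to the threshold among lower genes. Both genes were chosen for mention after their values were seen, and both had K518E replicates that differed little. Of 35 genes listed under metabolism 22 were below and 2, Mcts1 and Nsdhl, above, with a median difference of -0.0225. Mcts1 acts in translation re-initiation, so this list too holds genes its name does not describe.

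Of 16 genes listed under signalling kinases and phosphatases 10 were below and 0 above, with a median difference of -0.0262, but the member with the largest difference was Taz, which is an acyltransferase. Of 20 genes of membrane traffic and neurons 12 were below and 1 above, with a median difference of -0.0185. Of 10 germline and zinc finger genes 4 were below and 0 above, and Zfp182 had the largest difference, at 0.0858 and 0.0659 against 0.114 and 0.106. In no list was a gene other than Rab39b called by limma.

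Genes with a higher Xi fraction in Halo-SMCHD1 at day 5 had larger differences in the fraction but not in the ratio. In the tertile of genes lowest in Halo-SMCHD1, with values up to 0.0448, the median difference between K518E and G137E was -0.00958. It was -0.0238 in the middle tertile and -0.0374 in the highest tertile. The ratio of the median K518E value to the median G137E value was 0.613, 0.618 and 0.695 in these tertiles. Across 242 genes the Spearman correlation of the Halo-SMCHD1 value was -0.47 with the difference in the fraction and -0.07 with the difference in log2 odds. Genes of 1 library share its depth and are not independent, so these correlations are descriptions.

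Along the chromosome, lower genes were found in every segment. Of genes that start in the first 20 Mb, 32 of 50 were below without overlap, with a median difference of -0.0319, beside 56.6% and -0.0214 for all genes. Between 80 and 100 Mb these values were 15 of 32 and -0.0101, and from 100 Mb on, next to Xist, they were 14 of 25 and -0.0160. In the segments between 20 and 80 Mb the median differences were -0.0222, -0.0183 and -0.0198, so the values did not run in one direction towards Xist. The genes of the table end at 103 Mb, where Xist lies, so the far side of Xist was not covered. The ratio of medians in the first 20 Mb, 0.590, was close to that between 80 and 100 Mb, 0.595. The median log2 odds differences of these 2 segments were further apart, at -0.64 and -0.39. The Spearman correlation of position relative to Xist was 0.20 with the difference in the fraction and 0.11 with the difference in log2 odds. The lower genes had a median length of 33.6 kb against 21.7 kb for genes whose libraries overlapped. Across genes, length had a correlation of 0.08 with the difference in the fraction and 0.01 with that in log2 odds. Among the 195 genes matched to a RefSeq promoter of 300 bases (GRCm38.p6), the median number of CpG was 18.5 for lower genes and 15 for overlapping ones. The number of CpG had a correlation of -0.15 with the difference in the fraction and -0.10 with that in log2 odds.

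**Figure D5:**
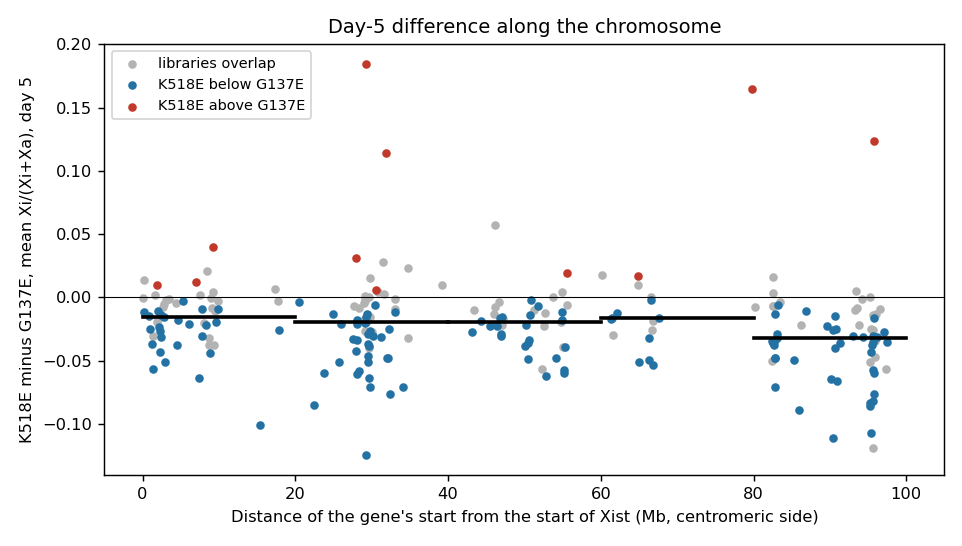
Difference in mean Xi/(Xi+Xa) at day 5, K518E minus G137E (y axis), against the distance of each gene's start from that of Xist in Mb (x axis), 1 point per gene, without Tsix, which lies at -0.312. Black bars are medians over 20 Mb of distance, which run from -0.0156 to -0.0319. Genes with both K518E libraries below (blue) occur at all distances, among overlapping genes (grey) and the few above (red).

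The 24 h libraries showed the same order before differentiation, with 1 library per line and no test. The median was 0.212 in K518E and 0.278 in G137E after 24 h with dox, and Halo-SMCHD1 at 0.237 lay between them. The mean difference of K518E from G137E was -0.0543, and 209 of 242 genes were lower in K518E. Before induction K518E was at 0.524 and G137E at 0.521, with a mean difference over genes of 0.00737. Of the genes below without overlap at day 5, 126 were lower and 11 higher in K518E at 24 h, and of the 94 overlapping genes 75 were. The Spearman correlation between the 24 h and day-5 differences across 242 genes was 0.19, so the genes with a large difference at 24 h were only loosely those with one at day 5.

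The largest 24 h differences among genes without overlap at day 5 were in Foxo4, Slc35a2 and Praf2. Foxo4, a forkhead transcription factor at chrX:101254528-101260873, was 0.133 in K518E and 0.500 in G137E at 24 h. At day 5 it was 0.00922 and 0.00957 against 0.0341 and 0.0377, with low values in both lines. Praf2, a small membrane protein gene at chrX:7728571-7731063, was 0.327 and 0.583 at 24 h, and at day 5 it was 0.0185 and 0.0141 in K518E against 0.0417 and 0.0556. Slc35a2, a UDP-galactose transporter at chrX:7884244-7894492, was 0.255 and 0.524 at 24 h and remained at 0.235 and 0.169 against 0.255 and 0.263 at day 5. All 3 ended lower in K518E at day 5 by a smaller difference than at 24 h.

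At day 7 the libraries of the lines were no longer apart. The median was 0.0284 and 0.0325 in K518E and 0.0300, 0.0299 and 0.0442 in G137E, and the libraries overlapped (exact permutation test, p = 0.8, with 0.1 as the smallest it can give). The mean difference over genes was -0.00110. K518E libraries were below all G137E libraries for 39 genes, 16.1%, and above all for 18 genes, 7.44%. G137E had 3 libraries at day 7 and 2 at day 5, so the rule was stricter at day 7. These shares are therefore not directly comparable with those of day 5. limma called 0 genes at day 7, 0% of those tested, and 17 had an unadjusted p under 0.05. From day 5 to day 7 the mean over genes moved by -0.00835 in K518E and by -0.0308 in G137E. Tested as a difference between days, the K518E-to-G137E contrast was more negative at day 5 by a median of -0.41 in log2 odds, and limma called 1 gene, Rab39b, 0.413% of those tested, with 20 genes at an unadjusted p under 0.05. Rab39b was not called in 12 of the 18 alternative settings of this test.

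Of the genes below at day 5, 28 were also below at day 7, which is 20.4% of the day-5 genes, beside 16.1% of all genes below at day 7, and 71.8% of the day-7 genes, beside 56.6% of all genes below at day 5. The genes below on both days included Ddx3x, Taz, Tmem47, Mamld1, Zfp182, the filamin gene Flna, and Firre, whose RNA organises nuclear architecture. Firre was 0.113 and 0.107 in K518E and 0.177 and 0.167 in G137E at day 5, and its mean difference was -0.0619 at day 5 and -0.0612 at day 7. For Ddx3x these values were -0.0647 and -0.0568. Of the 11 genes above at day 5, 6 were above at day 7, beside 7.44% of all genes, namely Plp2, Wdr44, Mcts1, Hmgb3, Rpl10 and Taf1.

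Among the genes below at day 5, 5 were above at day 7, where 7.44% of all genes were above, and these were Atp6ap2, Nkap, Stag2, L1cam and Fundc2. Atp6ap2, an accessory protein of the vacuolar proton pump, was 0.178 and 0.185 in K518E against 0.240 and 0.255 in G137E at day 5. At day 7 it was 0.202 and 0.170 in K518E and 0.120 to 0.160 in G137E. Its K518E values hardly moved while the G137E values went from above to below them. Stag2, a cohesin subunit, had mean differences of -0.0168 at day 5 and 0.0235 at day 7. These genes were named because of this pattern, and none was called by limma in the test between days.

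Both lines were set beside Halo-SMCHD1 to show which of them stood apart at day 5. These comparisons share the Halo-SMCHD1 libraries, and each shares its mutant libraries with the direct one. K518E was below Halo-SMCHD1 without overlap for 60.7% of genes and above for 14, 5.79%. G137E was below for 30, 12.4%, and above for 28, 11.6%. Among the genes with K518E below G137E at day 5, K518E was also below Halo-SMCHD1 for 109. G137E overlapped Halo-SMCHD1 in 102 of these genes, was above it in 26 and was below it in 9. Over all genes the mean difference from Halo-SMCHD1 was -0.0199 for K518E and 0.00363 for G137E. At day 7, Y353C, whose substitution was reported to impair ATP hydrolysis, was above Halo-SMCHD1 by a median of 0.0177 in these genes and by 0.0181 in the 239 genes found in both tables.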

How the data were processed

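ChrRNA-seq libraries (TruSeq stranded, paired-end reads of 81 bases) were processed by the authors, who filtered out rRNA with bowtie2 2.3.2, mapped what was left uniquely to N-masked mm10 using STAR 2.4.2a or 2.7.9a, and separated alleles by SNPsplit 0.4.0dev. Reads were counted by strand over whole transcripts with featureCounts, so introns count too. The authors deposited 1 fraction per gene and library, Xi/(Xi+Xa), for genes with 10 or more reads over SNPs across the samples compared, which sets no minimum for a single library, with no scaling between libraries. Counts are not part of the tables used here, so the depth and counting error of each value are unknown.

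Samples were grouped by their labels. Of the second deposited table, only the Halo-SMCHD1 and Y353C day-7 columns were used, and 25 of its columns were left out. Library medians were compared by exact permutation, and genes by limma 3.58.1 in R 4.3.3 (log2 odds with 0.01 added, the 14 differentiated libraries). The limma code was run on simulated data in which some genes changed by far more than the median gene did here. That run does not show how often changes of the size seen here would be called. Python 3.11.15, numpy 2.4.6, pandas 2.3.3 and scipy 1.17.1 were used for the rest. A gene counts as below or above where every K518E library lies on 1 side of every G137E library.

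Named genes were all limma calls, the 12 genes furthest below and the 6 furthest above without overlap, Xist, Tsix, the gene with the largest difference in each list, and the 3 largest at 24 h. Any other gene was picked for mention with its values known. The comparison and the gene lists were chosen with earlier results of these data known. Starts in the table count from 0, since 82 of 235 genes matched to GENCODE vM21 begin 1 base earlier there and 15 at the same base, and 1 was added to them. The alternatives were other pseudocounts, untransformed fractions, fewer libraries or genes, division by the value before induction, a common median, robust moderation, a minimum gap, the replicate number as a block, and leaving out each library.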

Additional observations from a re-analysis of the deposited data

Results flagged for a closer look

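In the test of the K518E-to-G137E difference between day 5 and day 7, limma called Rab39b, by 2.03 in log2 odds with an SE of 0.32 (adjusted p = 0.0197). The size is set by the pseudocount, at 4.96 with 0.001 and 0.72 with 0.05, because the other values are listed at 0. Rab39b was not called in 12 of 18 other settings. It was above 0 in both K518E libraries at day 5 and listed at 0 in every other differentiated library of the 3 lines. Groups of 2 or 3 libraries were not examined for single outlying values.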

How the results depend on the processing

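The depth is unknown, each line is 1 clone, and 2 libraries a line limit every test. At day 5 the mean difference over genes and the difference of medians kept their direction under the alternatives run for them, which leave out the common median, since that removes the median difference by construction and left 91 genes lower and 151 higher by their means. Without 1 library they ran from -0.0305 to -0.0166 and from -0.0356 to -0.0164. Genes below without overlap numbered 59 with a gap of at least 0.02, 39 at a common median and 154 to 191 without 1 library. Genes above went from 11 to 6 with a gap of at least 0.01, 4 with a gap of at least 0.02, 74 at a common median, 20 to 38 without 1 library, and 7 among genes above 0 in the 4 libraries, an alternative chosen after seeing the data. At day 5 limma called 0 genes on untransformed fractions (69 at an unadjusted p under 0.05) and 0 with only the libraries compared (62), and 1 to 2 without 1 library, with Spin4 added to Rab39b without K518E replicate 1. The difference between days gave 0 calls with a pseudocount of 0.05 (29 unadjusted), on untransformed fractions (30), with only the libraries compared (15), at a common median (13) and with robust moderation (16), and 0 to 1 without 1 library. The median difference at day 7 ran from -0.00670 to 0.000474, reversing without G137E replicate 3. At a common median Xist, Zfp182 and Slc35a2 reversed to 0.61, 0.0852 and 0.16 in log2 odds, and Xist ran from -0.0661 to 0.0151 without 1 day-5 library. The causes were not tested.

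Replicate numbers are shared by the lines, but the labels give no shared source and not every pair of libraries deviated together. Over genes, same-numbered libraries correlated by -0.19 for K518E and G137E at day 5, 0.12 for G137E and Halo-SMCHD1, 0.08 for K518E and Halo-SMCHD1, and 0.04 and 0.10 for K518E and G137E at day 7. With the replicate block limma called 1 gene at day 5, Rab39b, and the mean difference stayed at -0.0235. It called 1 at day 7 (Il1rapl1) and 2 between days (Rab39b, Il1rapl1). At day 7 Il1rapl1 was 0.117 and 0.187 in K518E against 0.0349, 0.0400 and 0.149 in G137E. By its means it was thus higher in K518E at day 7, the opposite of its day-5 order. With the K518E day-5 numbers crossed, chosen after seeing the data, the block gave 1 call at day 5 and 2 between days.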
